A study of Mus musculus with 6 samples.

Results

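The 10 genes of itaconate breakdown and of the propionate pathway it touches were followed in cytotoxic (CD8+) T cells of the mouse strain C57BL/6. The list was Acod1, Clybl, Auh, Pcca, Pccb, Mcee, Mut, Mmaa, Mmab and Mmachc, chosen by symbol, and all 10 were among the 55487 genes in each table, with Mut under its newer symbol Mmut. RNA-seq libraries came from cells exposed over 48 h to 5 mM itaconate (3 libraries) or to NaCl instead (3 control libraries). No further treatment, genotype or culture condition was given in the labels used here. Whether the replicates were separate mice or separate cultures is not stated in the labels. The p-values below therefore cover only how far these libraries vary, and that variation may be technical.

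Itaconate is a small dicarboxylate produced by the enzyme ACOD1, mainly in stimulated macrophages, by removing carbon dioxide from the tricarboxylic acid cycle intermediate cis-aconitate. Mitochondria break it down through coenzyme A esters: succinate-CoA ligase makes itaconyl-CoA, AUH adds water to give citramalyl-CoA, and CLYBL splits that product into acetyl-CoA and pyruvate. Propionyl-CoA, which arises from branched-chain amino acids, odd-chain fatty acids and cholesterol, is carboxylated to methylmalonyl-CoA by PCCA with PCCB. MCEE, an epimerase, converts methylmalonyl-CoA to the form that methylmalonyl-CoA mutase, the product of Mut, rearranges to succinyl-CoA. The mutase needs a form of vitamin B12 that MMACHC, MMAB and MMAA prepare and load, and itaconyl-CoA is known to inactivate that cofactor on the enzyme, which ties the pathways together.

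Expected counts, the authors' estimates of reads per gene, summed to between 18280217 and 31643408 per library. Counts are given as CPM, counts scaled to a common library size with edgeR and its TMM factors, and levels between genes as TPM, which divides by transcript length. Markers of CD8 T cells (6 genes, Cd8a, Cd8b1 and Cd3e among them) summed to 1480 to 1560 CPM in control and 1670 to 1700 CPM in itaconate libraries. Markers of macrophages and monocytes (10 genes) summed to 8.50 to 10 and 5.49 to 13.6 CPM, and markers of B cells (5 genes) to 11.9 to 18.5 and 10 to 21.5 CPM. Markers of CD4 T cells (3 genes) summed to 6.27 to 10.2 and 7.88 to 11.6 CPM, of dendritic cells (5 genes) to 1.69 to 2.98 and 1.89 to 3.35 CPM, and of NK cells (3 genes) to 0.0966 to 0.667 and 0 to 1.07 CPM. Markers of neutrophils and their precursors (6 genes, with Ly6g at 0 in every library) summed to 0 to 3.24 and 0.0555 to 13.3 CPM. The dendritic cell marker Siglech was also at 0 throughout. The highest neutrophil sum, 13.3 CPM, was that of itaconate replicate 3. Mpo had 219 counts there, 37 in control replicate 2 and 0 in the other libraries. In the CD8 list, Cd8a rose from 497 ± 27 to 645 ± 14 CPM (SD, n = 3, edgeR adjusted p 0.000297). Cd8b1, Cd3d, Cd3e, Cd3g and Cd2 did not pass (log2 fold changes -0.09 to 0.12, adjusted p 0.245 to 0.974).

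Reads were counted for all 10 genes, very few of them for Acod1, and no member changed detectably with itaconate. Acod1 had too few counts to be tested. Of the 9 members that passed the filter on low counts, 0 rose and 0 fell by edgeR's quasi-likelihood test at an adjusted p under 0.05, where 12.0% of all 12350 tested genes were called (6.68% higher and 5.36% lower). Also 0 of the 9 had an unadjusted p under 0.05 (26.5% of all tested genes). DESeq2 called 0 of the 9 and 1438 of all 12350 tested genes, and limma on TPM called 0 of the 9 and only 340 of all. The median log2 fold change of the 9 was -0.02, against 0.01 over all tested genes, and the median absolute log2 fold change was 0.11 against 0.13. In these bulk libraries, fewer cells of a type and less RNA per cell cannot be told apart.

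For 8 of the 9 tested members, the 95% interval of the fold change stayed inside 1.5-fold in either direction. The smallest SE was that of Mmab, whose interval ran from 0.97-fold to 1.21-fold. The interval was widest for Mmaa, from -0.90 to 0.32 on the log2 scale, on 21 to 71 counts per library.

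Per transcript length, the control libraries held most Auh and least Acod1. Auh stood at 29.3 ± 1.2 TPM (mean ± SD, n = 3), above 66.0% of all tested genes. Clybl (13.4 ± 1.3), Mmab (13.2 ± 0.79), Mmachc (12.9 ± 1.4), Pccb (12.2 ± 2.4), Mcee (11.3 ± 1.6) and Pcca (10.2 ± 1.2 TPM) followed, each overlapping the next in this order between libraries, and each of these 6 means lay under the median of tested genes, 14.4 TPM. Mut, at 7.02 ± 0.77 TPM, lay below the lowest Pcca library. Mmaa, at 1.43 ± 0.15 TPM, lay below every Mut library, and Acod1, at 0.14 ± 0.06 TPM, did not reach the lowest Mmaa library. That order holds for whole genes, and the coding isoform of Mmaa lay at the level of Acod1, as given with Mmaa. The itaconate libraries kept Auh in first place and Pcca, Mut, Mmaa and Acod1 in places 7 to 10, while places 2 to 6 were taken by Mmab, Clybl, Pccb, Mcee and Mmachc at 11.1 to 12.8 TPM.

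**Figure D1:**
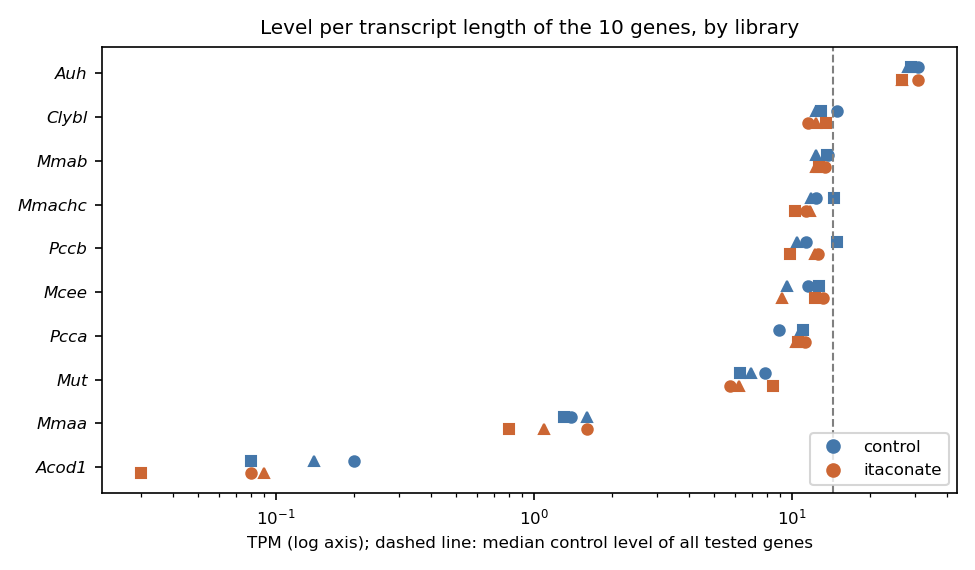
TPM (log axis) of the 10 genes, in rows ordered by their control mean, with 1 point per library, blue for control and orange for itaconate (circle, square and triangle for replicates 1, 2 and 3) and a dashed line at the median control level of all tested genes. Auh lies highest, at 26.64 to 30.79 TPM, a group of 6 genes lies near 10 TPM, and Acod1 lies at 0.03 to 0.20 TPM.

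Acod1, the enzyme that makes itaconate, lies on chromosome 14 (103046977 to 103056573, GRCm38). Its rounded counts were 10, 3 and 9 in the control group, by replicate number, and 3, 1 and 4 in the itaconate group. Relative to total counts that was 0.269 ± 0.12 CPM in control and 0.124 ± 0.061 CPM in itaconate libraries (SD, n = 3). The ranges overlapped, and a two-sided exact permutation test gave p = 0.3, where 0.1 is the smallest p that 3 against 3 libraries allow. Without a filter on low counts, edgeR gave Acod1 an adjusted p of 0.63. Of the 10 macrophage and monocyte markers, 6 had at most 7 counts in any library (Csf1r, Adgre1, Itgam, Cd14, Fcgr1 and C1qa). The other 4 had more: Mpeg1 40 to 189 counts, Cd68 18 to 44, Cybb 11 to 54 and Lyz2 2 to 47, and none of these passed between groups (adjusted p 0.285 to 0.927). The part of such cells, or of neutrophils, in the Acod1 counts was not tested.

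The enzymes that take itaconyl-CoA apart had nearly the same counts in both groups. Clybl encodes the citramalyl-CoA lyase of the last step. By replicate number, Clybl reached 11.5, 10.2 and 10.2 CPM with NaCl and 9.30, 11.5 and 10.3 CPM with itaconate. Both the lowest and the highest of the 6 values fell in the itaconate group, and the log2 fold change was -0.04 ± 0.12 (SE, edgeR adjusted p 0.887), with a 95% interval of -0.29 to 0.22. The authors' abundance-weighted length of Clybl was 1231 bases in each of the 6 libraries, the length of its coding isoform. Solved from that length, the noncoding isoform of 1359 bases had a share of 0%.

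Auh, the hydratase, which also acts in leucine breakdown, had 27.1, 26.4 and 26.0 CPM in control and 24.4, 28.2 and 26.2 CPM in itaconate libraries. As for Clybl, itaconate replicate 1 was lowest and itaconate replicate 2 highest. The log2 fold change was -0.02 ± 0.08 (adjusted p 0.924). Over the 6 libraries, Auh and Clybl gave the highest correlation of log2 CPM among the 36 pairs of tested members (Pearson r 0.952), and the lowest was that of Mcee and Mut (-0.989). The median over pairs was 0.089. The genes most like Clybl were sought among the 8040 genes that averaged 10 CPM or more and did not carry a predicted or clone-type symbol. The first 5 were Med20 (r 0.995), Klk8 (0.971), Dolpp1 (0.955), Auh (0.952) and Zfx (0.949). None of these 5 passed the test of itaconate against control (adjusted p 0.607 to 0.95). With 6 libraries and this many genes, such values are a description.

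**Figure D2:**
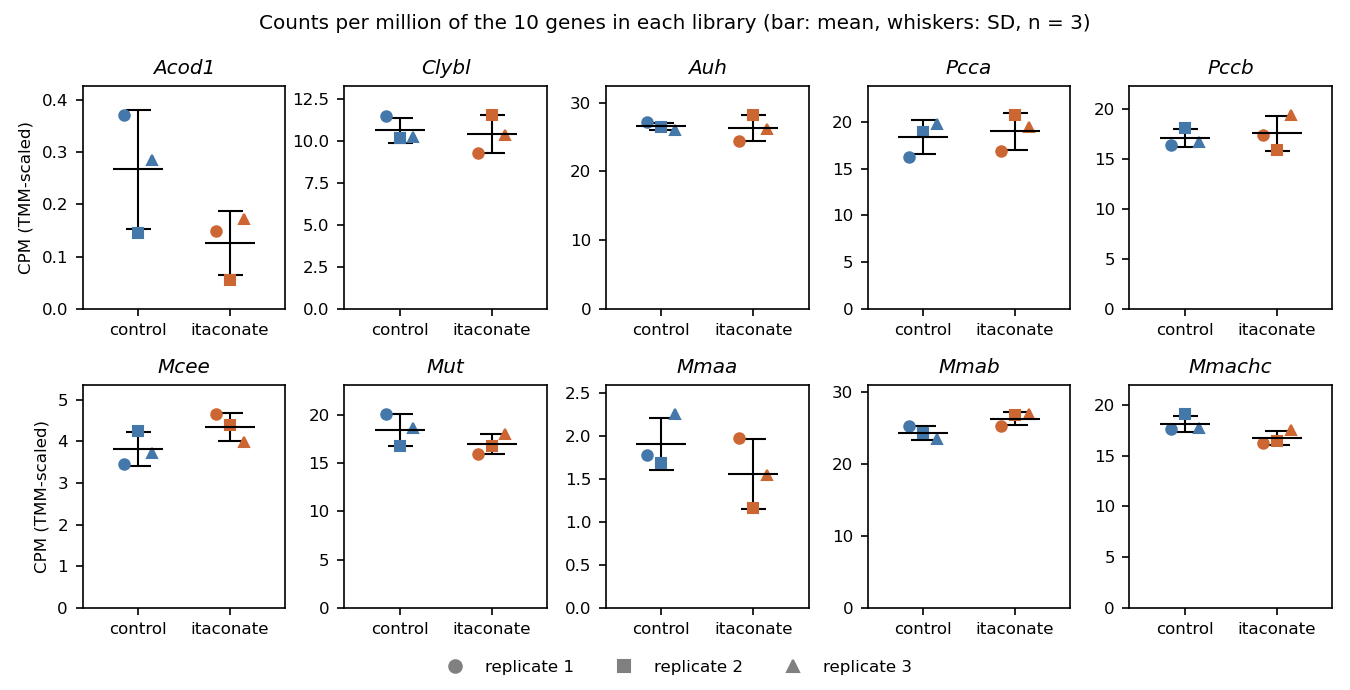
CPM of each of the 10 genes in the 6 libraries, with axes from 0, the horizontal bar at the group mean and whiskers of 1 SD (n = 3 libraries). Points of the 2 groups overlap in every panel except that of Mmachc, where the itaconate libraries (16.3 to 17.5 CPM) lie just under the control libraries (17.6 to 19.1 CPM).

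Propionyl-CoA carboxylase is built from the biotin-carrying alpha subunit, encoded by Pcca, and the beta subunit, encoded by Pccb. Pcca lies on chromosome 14 (122534324 to 122891100), 132 kb beyond the end of Clybl (122181704 to 122402234) and on the same strand. It had 16.3, 18.9 and 19.8 CPM in control and 16.9, 20.7 and 19.5 CPM in itaconate libraries, so that replicate 1 was lowest in either group. Pccb, on chromosome 9, had 16.4, 18.1 and 16.7 CPM in control and 17.4, 15.9 and 19.4 CPM in itaconate libraries. Neither subunit differed beyond the spread between libraries (log2 fold changes 0.05 ± 0.10 for both, adjusted p 0.806 and 0.811). The ratio of Pcca to Pccb in TPM was 0.853 ± 0.16 in control and 0.934 ± 0.12 in itaconate libraries (two-sided exact permutation p = 0.5).

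Mcee encodes the epimerase that prepares methylmalonyl-CoA for the mutase. It had 3.45, 4.25 and 3.71 CPM in control and 4.65, 4.38 and 3.99 CPM in itaconate libraries, on 79 to 117 counts per library. The groups overlapped, and the log2 fold change of 0.19 ± 0.17 did not pass (adjusted p 0.533). Its interval, -0.18 to 0.57, leaves room for a rise of up to 1.48-fold.

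Mut, the mutase itself, had 20.0, 16.7 and 18.6 CPM in control and 16.0, 16.8 and 18.02 CPM in itaconate libraries. The fitted log2 fold change was -0.13 ± 0.10 (adjusted p 0.448, interval -0.33 to 0.08). In TPM the pattern was another one, with 7.83, 6.30 and 6.92 TPM in control and 5.75, 8.42 and 6.23 TPM in itaconate libraries, so that itaconate replicate 2, in the lower part of the range in CPM, became the highest. The authors' abundance-weighted length of Mut was 2569 bases in that library and 3492 to 3674 bases in the other 5. The annotation has 2 isoforms, of 3674 bases (13 exons) and 590 bases (4 exons). Solved from these lengths, the short isoform made up 35.8% of Mut transcripts in itaconate replicate 2, 5.5%, 2.2% and 5.9% in the control libraries and 0% in itaconate replicates 1 and 3. The 35.8% corresponded to about 17 of 303 reads, and the long isoform alone stood at 5.40 TPM in that library, below the 5 others. With effective length in the model the log2 fold change of Mut was 0.01 (adjusted p 0.984).

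**Figure D3:**
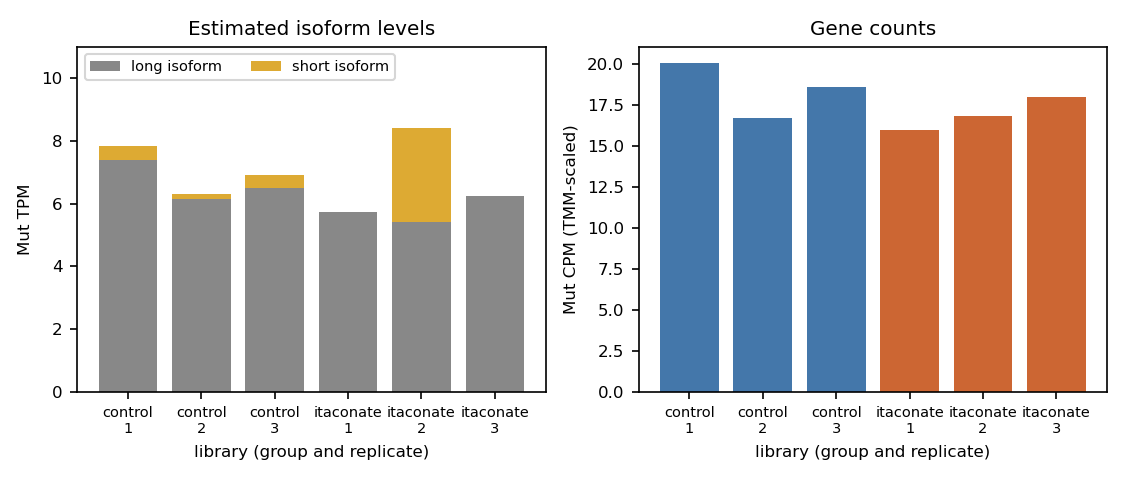
Mut in each library, by group and replicate: on the left its TPM split into the long isoform of 13 exons (grey) and the short one of 4 exons (yellow), as solved from the deposited lengths, and on the right its CPM (blue for control, orange for itaconate). The short isoform adds 3.02 TPM in itaconate replicate 2, whose CPM of 16.8 is not raised.

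Abundance-weighted lengths of the other members moved by 9.7% (Mmaa) to 20.1% (Pcca) of their mean between libraries, apart from Acod1 and Clybl, which had 1 value throughout. Between groups, 8 two-sided exact permutation tests gave p from 0.2 to 1 (adjusted p 1 for each), and none could have gone below 0.1.

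Mmaa, Mmab and Mmachc prepare the B12 cofactor of the mutase. The first, a GTPase that guards loading of the cofactor, was the least abundant of them, with 1.78, 1.69 and 2.25 CPM in control and 1.98, 1.17 and 1.54 CPM in itaconate libraries. The groups overlapped (log2 fold change -0.29 ± 0.28, adjusted p 0.573), and at this depth a fall to 0.54-fold lay inside the interval. The annotation gives Mmaa a coding isoform of 5650 bases and an isoform of 1685 bases typed as a target of nonsense-mediated decay, the pathway that removes transcripts with an early stop. Solved from the deposited lengths, the decay isoform made up 93.5% to 95.3% of Mmaa transcripts in control and 93.9% to 98.1% in itaconate libraries, about 17 to 56 reads per library. The coding isoform was then left with 0.0613 to 0.104 TPM in control and 0.0305 to 0.0643 TPM in itaconate libraries, overlapping Acod1. The split rests on few reads and assumes that no other isoform was present. The ratio of Mmaa to Mut in TPM was 0.206 ± 0.027 in control and 0.183 ± 0.092 in itaconate libraries (exact permutation p = 0.7). By replicate number the itaconate ratios were 0.278, 0.095 and 0.175. In replicate 2, the lowest, Mmaa had 21 counts and the TPM of Mut included 3.02 TPM of its short isoform.

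Mmab, the adenosyltransferase that makes the active cofactor, had 25.2, 24.3 and 23.4 CPM in control and 25.2, 26.8 and 26.9 CPM in itaconate libraries. The groups touched at replicate 1, and the log2 fold change was 0.11 ± 0.08 (adjusted p 0.366). Mmab starts 209 bases from Mvk, the mevalonate kinase of cholesterol synthesis, which is read in the opposite direction from the same stretch of chromosome 5. Mvk had 24.7, 27.6 and 27.3 CPM in control and 29.2, 29.5 and 30.5 CPM in itaconate libraries, without overlap, and did not pass either (log2 fold change 0.17 ± 0.07, adjusted p 0.167). The stretch between the 2 annotated starts is shown because both genes are read from it. It holds 208 bases with 5 copies of CCAAT on either strand and 1 copy of GGGCGG, given in capitals, at chr5:114444061-114444268 of GRCm38.p6 (RefSeq), on the strand of Mmab, with Mvk starting before its first base and Mmab after its last:
Mmab-Mvk: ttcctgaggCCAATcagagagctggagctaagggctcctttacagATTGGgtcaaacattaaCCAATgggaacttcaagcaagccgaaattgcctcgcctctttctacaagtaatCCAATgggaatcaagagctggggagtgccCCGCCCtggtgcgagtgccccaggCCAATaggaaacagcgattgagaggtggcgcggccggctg

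Mmachc encodes the protein that strips and passes on newly imported B12 in the cytosol. It had 17.6, 19.1 and 17.7 CPM in control and 16.3, 16.4 and 17.5 CPM in itaconate libraries. These groups did not overlap, which held for 1 of the 9 tested members and for 31.2% of all tested genes (14.4% lower with itaconate). The log2 fold change of -0.11 ± 0.09 did not pass (adjusted p 0.456). Transcription of Mmachc is known to depend on HCFC1 with THAP11 and ZFP143, which share a composite site. Its motif, on either strand, was in the 300-base promoter of Mmachc alone among the 9 members with a RefSeq promoter entry, and in 1.81% of 32851 mouse promoters. The site spans the annotated start of Mmachc (116708406, minus strand of chromosome 4) and is shown, in capitals and on the strand of Mmachc, within 30 bases at chr4:116708389-116708418 of GRCm38.p6:
Mmachc: ttacttcttGGGAAATGTAGTccagccctg
Hcfc1 had 360 ± 25 CPM in control and 320 ± 26 CPM in itaconate libraries (log2 fold change -0.17 ± 0.06, adjusted p 0.11), Zfp143 25.0 ± 1.5 and 22.5 ± 2.0 CPM (adjusted p 0.299) and Thap11 36.2 ± 0.87 and 39.0 ± 0.45 CPM (adjusted p 0.302). Hcfc1 was called lower without control replicate 3 (adjusted p 0.0292) or itaconate replicate 1 (0.0316), and without the filter on low counts (0.013). With effective length in the model its log2 fold change was -0.08 (adjusted p 0.445).

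Further motifs, 9 in number, were searched on both strands of the same promoters. CCAAT was in 5 of the 9 members with an entry (37.41% of all promoters), GGGCGG in 7 (35.66%) and CCGGAAG in 1, Auh (8.86%). CACGTG, the NRF1 palindrome, TGACCTTTG, CACCCCAC and TGACGTCA were in 0 of the 9 and in 7.15%, 0.97%, 0.48%, 2.87% and 1.79% of all promoters. A single fixed spelling of the composite site above was also in 0 of the 9 and in 0.28% of all promoters. For each motif, a member counted when any of its promoter entries held it, while the shares were taken over single entries. The 2 measures are therefore not quite alike. A match describes letters only.

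Of the 10 members, 4 had a protein-coding gene starting on the opposite strand within 1000 bases, a set looked up after the members' values were known. Besides Mvk these were Ccdc163, a coiled-coil gene 103 bases from Mmachc (8.53 ± 1.1 and 9.35 ± 0.69 CPM), Mphosph10, a gene of ribosome assembly 339 bases from Mcee (104 ± 1.2 and 100.1 ± 2.9 CPM), and Cenpq, a centromere gene whose first bases overlap those of Mut (26.4 ± 0.94 and 23.6 ± 0.34 CPM). By edgeR 0 of the 4 passed (adjusted p 0.167 to 0.563), and 2, Mvk and Cenpq, had an unadjusted p under 0.05 (26.5% of all tested genes). Groups did not overlap for 3 of the 4, Mvk (higher) and Mphosph10 and Cenpq (both lower), where 31.2% of all tested genes did not overlap. Clybl, Pcca and Mut also overlap genes on the other strand, and since the strand setting of the counting is not given in the sources used here, reads of such partners cannot be told apart.

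**Figure D4:**
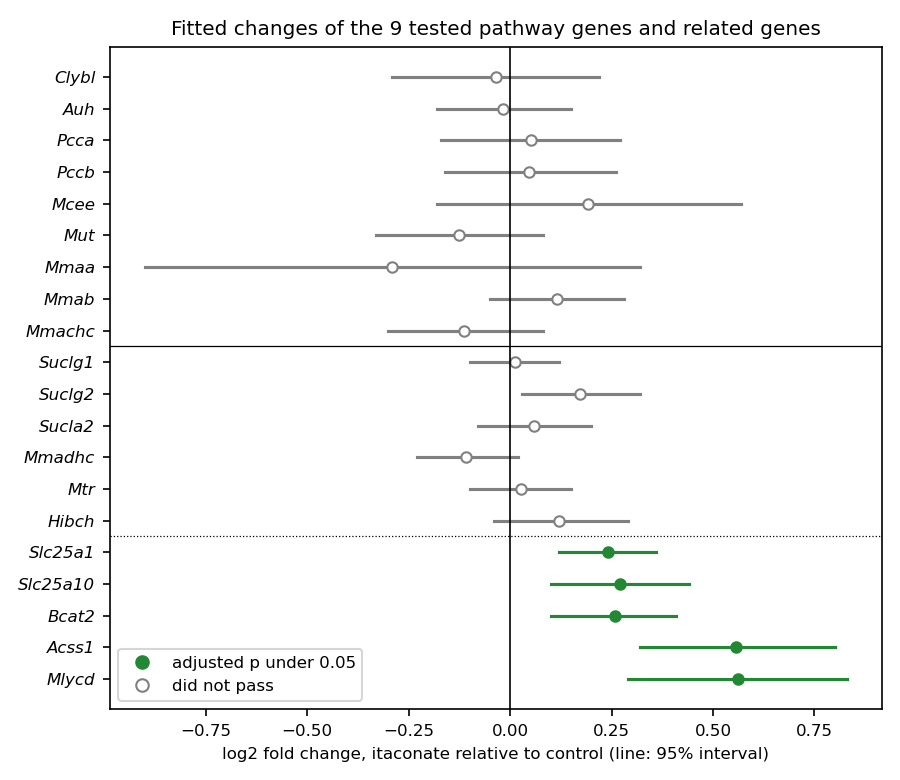
Log2 fold change of itaconate relative to control with its 95% interval for the 9 tested members (top), 6 related genes chosen by name (middle) and the 5 related genes that were called (bottom, filled). The intervals of all 9 members include 0, and those of the 5 called genes lie between 0.10 and 0.83.

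Genes that feed or serve these steps were taken from 5 further lists. Succinate-CoA ligase, which activates itaconate, had Suclg1 at 98.9 ± 2.6 (control) and 99.7 ± 2.2 CPM (itaconate), Sucla2 at 73.4 ± 6.4 and 76.6 ± 1.3 CPM and Suclg2 at 70.4 ± 4.6 and 79.3 ± 6.1 CPM. None of the 3 passed (adjusted p 0.912, 0.619 and 0.117). With effective length in the model the log2 fold change of Suclg2 went from 0.17 to 0.09 (adjusted p 0.528). Sugct, a CoA transferase, had 7, 8 and 12 counts in control and 6, 4 and 5 in itaconate libraries, too few for edgeR (two-sided exact permutation p = 0.2 on CPM). Slc13a3, a plasma membrane carrier of dicarboxylates that can import itaconate, had 17, 8 and 12 counts in control and 1, 0 and 7 in itaconate libraries. In CPM the groups did not overlap (two-sided exact permutation p = 0.1, the smallest possible), and without a filter on low counts edgeR gave an adjusted p of 0.132. In TPM they overlapped, with 0.28, 0.17 and 0.16 in control and 0.38, 0 and 0.12 in itaconate libraries, the 0.38 resting on 1 count. Oxgr1, a receptor reported to sense itaconate, and the carriers Slc13a2 and Slc13a5 were at 0 in all 6 libraries.

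Of 9 tested genes for itaconate activation, transport and sensing, 2 rose, 0 fell and 7 did not pass (6.68% of all tested genes rose and 5.36% fell), with a median log2 fold change of 0.06. An unadjusted p under 0.05 was reached by 3 of the 9, all higher (26.5% of all tested genes, either direction). Slc25a1, the mitochondrial citrate carrier, rose from 75.7 ± 2.5 to 89.4 ± 5.0 CPM (log2 fold change 0.24 ± 0.06, adjusted p 0.0149). Slc25a10, the mitochondrial dicarboxylate carrier, rose from 22.0 ± 1.4 to 26.6 ± 0.48 CPM (0.27 ± 0.08, adjusted p 0.0372). Slc25a1 no longer passed when control replicate 2 was left out (adjusted p 0.0751), or itaconate replicate 2 (0.0721) or 3 (0.0716), and Slc25a10 without any 1 library other than control replicate 1 (0.085 to 0.173). With effective length in the model neither was called (adjusted p 0.0568 and 0.125), and DESeq2 called Slc25a1 only. Limma on TPM called neither gene (adjusted p 0.131 and 0.248).

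B12 uptake and use was described by 10 tested genes, of which 0 passed by edgeR, where 12.0% of all tested genes were called. Of the 10, 1 had an unadjusted p under 0.05 (Hcfc1, lower), against 26.5% of all tested genes. DESeq2 and limma on TPM called 0 of the 10, and 1438 and 340 of all 12350 tested genes. The median log2 fold change of the 10 was -0.04. Mtr, the other B12-dependent enzyme, which makes methionine, stood at 68.2 ± 1.8 and 69.4 ± 3.5 CPM (adjusted p 0.822). Mmadhc, which directs B12 to either enzyme, stood at 71.6 ± 1.9 and 66.4 ± 3.2 CPM (adjusted p 0.253).

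The biotin list, with the carboxylases that share this cofactor with Pcca, had 8 tested genes (median log2 fold change -0.05). By edgeR 0 of the 8 passed (12.0% of all tested genes), and 1 (Acaca, lower) had an unadjusted p under 0.05 (26.5%). DESeq2 and limma on TPM called 0 of the 8, and 1438 and 340 of all 12350 tested genes. Hlcs, the ligase that attaches biotin to Pcca, had 27.5 ± 0.69 and 28.4 ± 0.38 CPM (adjusted p 0.714). Acaca, acetyl-CoA carboxylase of fatty acid synthesis, had 180 ± 13 and 164 ± 7.8 CPM (adjusted p 0.16, and 0.0449 without control replicate 3).

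Branched-chain amino acid breakdown, a source of propionyl-CoA, had 17 tested genes, of which 1 rose, 0 fell and 16 did not pass (median 0.07), against the same 6.68% and 5.36%. Of the 17, 6 had an unadjusted p under 0.05, 4 higher and 2 lower (26.5% of all tested genes). Groups did not overlap for 6 genes higher and 2 lower with itaconate (16.8% and 14.4% of all tested genes). The riser was Bcat2, the mitochondrial transaminase of the first step, from 59.2 ± 5.8 to 71.0 ± 3.8 CPM (log2 fold change 0.26 ± 0.07, adjusted p 0.0312). Bcat2 no longer passed when control replicate 1 (adjusted p 0.0928) or 2 (0.162) was left out, or itaconate replicate 2 (0.118) or 3 (0.124). Nor did Bcat2 pass with effective length in the model (adjusted p 0.117) or by limma on TPM (0.183). Those settings called 567 and 340 of all 12350 tested genes. DESeq2, which called 1438 of them, called Bcat2 (adjusted p 0.026). Hibch, a hydrolase of valine breakdown, had 25.2 ± 1.3 and 27.4 ± 1.5 CPM (adjusted p 0.351). With effective length in the model the log2 fold change of Hibch went from 0.12 to 0.31 (adjusted p 0.0703). Chosen after their values were seen, 3 genes of this list did not pass with all 6 libraries but were called when 1 was left out: Bcat1, lower without control replicate 1 (adjusted p 0.0341), Acadsb, higher without itaconate replicate 2 (0.0412), and Hsd17b10, higher without itaconate replicate 1 (0.0396).

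Among 7 tested genes of acyl-CoA synthetases and malonate handling, 2 rose, 0 fell and 5 did not pass (median 0.18), again against 6.68% and 5.36%. An unadjusted p under 0.05 was reached by 3 of the 7, all higher (26.5% of all tested genes, either direction). Groups did not overlap for 4, all higher (16.8% of all tested genes were higher without overlap). Acss1, the mitochondrial acetyl-CoA synthetase, rose from 8.84 ± 0.96 to 13.0 ± 0.22 CPM (log2 fold change 0.56 ± 0.11, adjusted p 0.00554), and was called without any 1 of the 6 libraries (adjusted p 0.00335 to 0.0389). Mlycd, malonyl-CoA decarboxylase, rose from 7.98 ± 1.0 to 11.8 ± 1.0 CPM (0.56 ± 0.13, adjusted p 0.0107), a call lost without itaconate replicate 3 (0.0611) and with effective length in the model (0.0531). On TPM, limma called neither (adjusted p 0.124 and 0.0782). Acss1 stayed called with effective length in the model (adjusted p 0.0391), and DESeq2 called both genes (0.00247 and 0.0056).

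**Figure D5:**
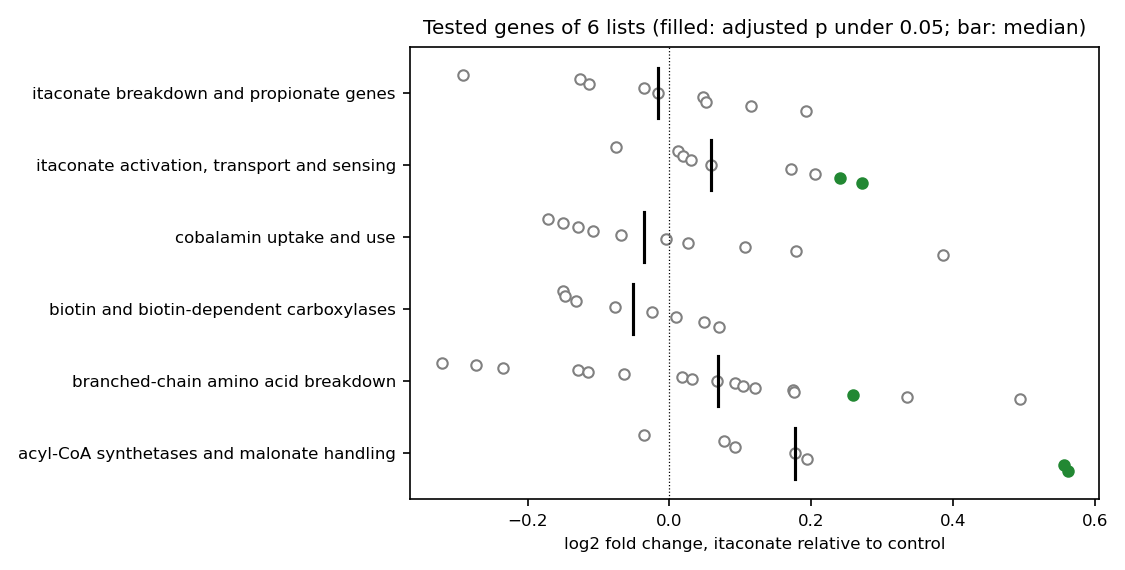
Log2 fold change of itaconate relative to control for each tested gene of the 6 lists, 1 point per gene, filled where the adjusted p was under 0.05, with a black bar at the list's median. The 9 breakdown and propionate genes lie between -0.29 and 0.19 with no filled point, and the 5 filled points of the other lists all lie above 0.2.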

How the data were processed

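Each library came as 1 gene table whose columns are those of RSEM, which assigns ambiguous reads by likelihood. The deposited expected counts are, from the column names, estimated reads per gene without normalisation. The deposited TPM values were scaled by the authors for effective length and library size, and the deposited lengths average isoforms by abundance. Bowtie 0.12.2 and the builds mm8 and mm10 appear in the submitters' processing notes, without roles. For the RSEM version, annotation, strand setting and trimming the entry is the same: not given in the sources used here.

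After rounding to whole numbers, the 3 itaconate and 3 control libraries were compared by edgeR 4.0.16 (R 4.3.3; quasi-likelihood, two-sided, TMM). Genes needed a minimum count of 10 by edgeR's own filter and at least 15 counts in total. Benjamini-Hochberg adjustment covered 12350 genes, with a threshold of 0.05, and any adjusted p without a named tool is edgeR's. DESeq2 1.42.0, limma 3.58.1 on log2(TPM + 1), other filters, an effective-length offset, a replicate block and leaving out each library were alternatives. The fit was tried on simulated counts with 200 changed genes. Positions and isoforms are from GENCODE M21 (GRCm38), which held 99.83% of the gene identifiers. Promoters of 300 bases came from RefSeq (GRCm38.p6). Motif and neighbour searches were added after the members' values were known.

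The members and lists were chosen with earlier results of these data known. In the related lists, 2 genes are not reported here and were left out of the lists' counts and medians, though not out of the fit. The genes named are the members, the called genes of each list (up to 4 per direction), 7 fixed by name (Sucla2, Suclg1, Suclg2, Sugct, Mtr, Mmadhc, Hibch) and the 5 most like Clybl. Hcfc1, Thap11, Zfp143, Acaca, Hlcs, Slc13a3, Slc13a2, Slc13a5, Oxgr1, Mvk, Ccdc163, Mphosph10, Cenpq, Cd8a and the other markers named were chosen after their values were seen. FPKM values were not used.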

Additional observations from a re-analysis of the deposited data

How the results depend on the processing

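No member was called in any of 14 other analyses. Of 126 member fold changes from these analyses, 114 kept their direction and 12 had the opposite sign. The number of genes changed was 1487 (825 higher), against 567 with an effective-length offset (325 higher), 340 with limma on log2(TPM + 1) (133 higher), 356 on log2(TPM + 0.1) (141 higher) and 726 to 1400 when 1 library was left out, with 726 without control replicate 2, 896 without itaconate replicate 2 and 835 without itaconate replicate 3. A replicate block gave 2419, and of the related genes named it added calls for Suclg2 (adjusted p 0.0328), Hcfc1 (0.0222) and Acadsb (0.048). Libraries of the same number showed correlations of 0.113, 0.031 and 0.003 between their deviations, not every library correlated best with its own number, and the labels do not pair them. Opposite signs appeared for Pccb (-0.0048 with the offset, -0.0635 and -0.0678 with limma at the pseudocounts 1 and 0.1), Mut (0.0086 with the offset), Mmab (-0.0406 and -0.0433 with limma), Sucla2 (-0.0173 and -0.0175), Suclg1 (-0.0569 and -0.0575) and Mtr (-0.0573 and -0.0604). Leaving out 1 library gave -0.1131 to 0.0374 for Clybl, -0.0686 to 0.0328 for Auh, -0.0308 to 0.1304 for Pcca, -0.0328 to 0.1129 for Pccb, -0.0054 to 0.0287 for Suclg1 and -0.0065 to 0.0644 for Mtr. The causes of these shifts were not tested. Depth limits Acod1, Mmaa and Mcee most.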
